A study of Homo sapiens with 28 samples.

Results

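The nuclear-encoded subunits of the oxidative phosphorylation complexes were followed in 4 human liver tumour cell lines grown as cultures and as tumours in the chick egg. Members were every deposited feature whose gene symbol belongs to the NDUFA, NDUFB, NDUFC, NDUFS or NDUFV numbers (complex I), is SDHA to SDHD (complex II), starts with UQCR or is CYC1 (complex III), starts with COX4 to COX8 (complex IV) or starts with ATP5 (complex V). The rule found 89 of 18961 features, 36 of complex I, 4 of complex II, 10 of complex III, 19 of complex IV and 20 of complex V, and NDUFA4 and its paralogue NDUFA4L2 were counted with complex IV. The symbols take in a few proteins that are not structural subunits, such as ATP5IF1, which inhibits the ATP synthase, and COX7A2L, which helps complexes to associate.

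The lines were HepG2, a hepatoblastoma line, and 3 hepatocellular carcinoma lines, Hep3B, HuH7 and PLC/PRF/5. Where 4 values follow each other without names they stand in this order. Each line gave 3 libraries from cultures grown in vitro and 4 from tumours grown in ovo, with cells set on the vascular membrane of white leghorn chicken eggs (chorioallantoic membrane) on embryonic day 9 and tumours taken on day 18. No genotype, drug or other treatment is named for any group. Libraries were made from total RNA with a kit that reads 1 short amplicon for each human gene, so a level is a number of reads of that amplicon and levels of different genes are not comparable. RNA came from cultures on a mini column and from tumours on a midi column, and cultures and tumours lay in different wells of the library plates. Column, wells and growth condition therefore cannot be told apart. No label says whether replicate libraries are separate cultures or separate eggs, and p values therefore reflect only library-to-library spread, which may be technical.

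Oxidative phosphorylation passes electrons from NADH (complex I) and succinate (complex II) through ubiquinone to complex III, through cytochrome c to complex IV, and finally to oxygen. Complexes I, III and IV pump protons across the inner mitochondrial membrane, and complex V, the ATP synthase, uses their return to make ATP. Hepatocytes are rich in mitochondria, which also house the tricarboxylic acid cycle and fatty acid oxidation. Complexes I, III, IV and V hold subunits from both the nuclear and the mitochondrial genome, whereas complex II is wholly nuclear.

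The amplicons that the results turn on are printed because the measurements moved with their length and base composition. All come from the deposited table, were placed on GRCh38 by exact match to GENCODE release 29 transcripts, and are written 5′ to 3′ in the sense of the gene. In the first set capitals mark the 3 bases on each side of an exon junction. NDUFV1 (chr11:67612187-67612382, plus strand, coding exons 9 to 10) carries the flavin site where NADH gives up its electrons, and its amplicon is short and rich in G and C. NDUFA4L2 (chr12:57236604-57237065, minus strand, coding exons 2 to 3) is the paralogue of the complex IV subunit NDUFA4. NDUFS5 (chr1:39028873-39034489, plus strand, coding exons 2 to 3) is an accessory subunit of complex I. ATP5MC3 (chr2:175179103-175180106, minus strand, coding exons 3 to 4) encodes the c subunit of the ATP synthase rotor. ATP5F1B (chr12:56642570-56643481, minus strand, coding exons 5 to 7) encodes the catalytic beta subunit and has the second longest amplicon of the members tested.
NDUFV1: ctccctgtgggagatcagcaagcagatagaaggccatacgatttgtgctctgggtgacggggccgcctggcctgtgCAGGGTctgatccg
NDUFA4L2: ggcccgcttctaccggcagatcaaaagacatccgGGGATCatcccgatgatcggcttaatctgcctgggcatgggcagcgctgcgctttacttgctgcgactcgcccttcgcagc
NDUFS5: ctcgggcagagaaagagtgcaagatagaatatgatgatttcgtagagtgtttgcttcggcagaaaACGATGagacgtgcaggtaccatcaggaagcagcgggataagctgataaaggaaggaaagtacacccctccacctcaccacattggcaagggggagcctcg
ATP5MC3: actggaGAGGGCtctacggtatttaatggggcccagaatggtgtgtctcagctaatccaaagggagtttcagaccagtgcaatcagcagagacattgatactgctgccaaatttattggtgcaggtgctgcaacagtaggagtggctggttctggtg
ATP5F1B: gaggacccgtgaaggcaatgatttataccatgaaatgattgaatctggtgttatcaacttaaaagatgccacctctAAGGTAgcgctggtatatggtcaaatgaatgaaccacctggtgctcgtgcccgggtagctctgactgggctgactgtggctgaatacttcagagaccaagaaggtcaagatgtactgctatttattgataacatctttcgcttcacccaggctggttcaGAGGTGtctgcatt

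A further set shows where a feature does not speak for 1 gene alone. UQCRH encodes the hinge protein of complex III (chr1:46310174-46310292, plus strand, coding exon 3), and UQCRHL (chr1:15807431-15807548, minus strand) is its intronless copy. Over the 118 aligned bases 116 are identical and 2 differ, and capitals mark the 2 differing bases, so reads of the pair can be assigned to either only through these bases. In the amplicon of the feature labelled NDUFA4, capitals mark 39 bases that it shares with the amplicon of NAXD, a metabolite repair enzyme. That amplicon matched NAXD transcripts and no NDUFA4 transcript, so it was left out of all counts below and the other 88 members were used.
UQCRH: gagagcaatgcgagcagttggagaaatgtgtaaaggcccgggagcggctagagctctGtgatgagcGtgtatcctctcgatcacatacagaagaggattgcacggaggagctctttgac
UQCRHL: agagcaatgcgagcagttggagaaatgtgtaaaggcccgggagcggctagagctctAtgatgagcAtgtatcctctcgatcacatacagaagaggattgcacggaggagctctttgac
row labelled NDUFA4: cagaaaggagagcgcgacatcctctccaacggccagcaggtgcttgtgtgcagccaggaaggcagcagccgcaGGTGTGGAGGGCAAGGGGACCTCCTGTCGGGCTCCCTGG

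Of the 88 placed amplicons, 70 spanned an exon junction and 18 lay within 1 exon, and 76 were wholly coding. For 22 members another annotated gene matched the amplicon with at least 95% identity over at least 90% of its length. That gene can overlap the same locus, as the readthrough gene NDUFC2-KCTD14 does for NDUFC2. For 14 of the 22 members a match was a pseudogene, as for SDHA, SDHD and COX6A1. Counts of those members are uncertain to that extent, since no source used here gives how reads of copies were assigned. 79 members passed the expression filter (edgeR's filterByExpr, at least 10 reads) and were tested, namely 36 of complex I, 4 of complex II, 10 of complex III, 11 of complex IV and 18 of complex V. The 9 that did not pass include tissue-restricted isoforms of complex IV. COX6B2 and COX7A1, the testis and the heart and muscle isoforms, had 0 reads in all 28 libraries, which allows up to 3 reads in each. COX4I2, a lung isoform, and COX6A2, a muscle isoform, had 1 read each, in the same HuH7 tumour library. COX8C had 4 reads in all, ATP5MD 7 and ATP5MGL 109 over 25 libraries, and COX7B2 had 7 reads, all in 5 tumour libraries. COX6C, a ubiquitous subunit, was read at no more than 11 reads in any library. None of the 13 mitochondrially encoded subunits has an amplicon, so the mitochondrial part of the complexes was not measured.

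Depth was 6205368 to 8662998 reads in cultures and 6085750 to 15086465 in tumours. Levels are CPM, reads per 1000000 of the library after TMM scaling, and changes are log2(CPM + 1) in ovo minus in vitro from 1 limma fit to all libraries, called at a Benjamini-Hochberg adjusted p under 0.05. As ranges over libraries and without a test, 8 hepatocyte markers together held 88324 to 95849 CPM in HepG2 cultures and 150202 to 260179 in tumours, and 26899 to 28709 CPM in Hep3B cultures and 174935 to 315403 in tumours. HuH7 had 12546 to 12934 CPM in cultures and 3308 to 6563 in tumours, and PLC/PRF/5 had 21.6 to 28 CPM and 772 to 2057, with no ALB or TTR reads in its cultures. Endothelial markers (3 of 6 past the filter, KDR at 0 throughout) summed to 0.236 to 23.3 CPM in cultures and 2.27 to 58.8 CPM in tumours, the highest in HepG2 tumours. Fibroblast markers (5 of 6) summed to 11.7 to 208 CPM in cultures and 3.35 to 133 CPM in tumours, leukocyte markers (2 of 5) to at most 41.1 CPM, and the erythroid ALAS2 was at 0 in all libraries. The part of cell makeup in the changes below, reads from chick RNA included, was not tested, and in bulk RNA fewer cells of a type and less RNA per cell cannot be told apart. Within each line the tumour libraries numbered 3 stood apart in HepG2, Hep3B and HuH7, as described with the amplicons, and counts are given with and without them.

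More subunits lay lower than higher in the tumours of each line, least clearly in HepG2, and most calls were made in HuH7 and Hep3B. In HuH7 44 of 79 members fell, against 19.8% of all features, and 0 rose, against 23.6%. Fitted from HuH7 libraries alone, 27 fell (11.6% of all features). edgeR's quasi-likelihood test on reads recovered from the values gave 36 lower (15.0% of all features) and 0 higher (24.7%), and at an unadjusted limma p under 0.05 there were also 0 higher. In Hep3B 31 fell (27.4% of all features) and 11 rose (24.6%), and edgeR gave 27 lower (22.4%) and 11 higher (25.5%). The members called lower in both lines numbered 28, which is 28 of the 31 in Hep3B and of the 44 in HuH7, where 12.3% of all features were called lower in both. These comparisons do not share samples, but both use the variance that the fit to all libraries gave each gene. The calls in Hep3B and HuH7 are therefore not independent, and a gene with little spread is more readily called in both. Beside single members below, "without the amplicon trend" means that the trend of all features in amplicon length and GC was subtracted, and "total reads" that libraries were scaled by their totals.

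HepG2 and PLC/PRF/5 gave fewer calls in this fit. For HepG2 5 members fell (13.0% of all features) and 5 rose (12.1%), and for PLC/PRF/5 7 fell (5.61%) and 1 rose (11.9%). edgeR gave 3 lower (11.0%) and 5 higher (13.0%) in HepG2, and 5 lower (4.15%) and 1 higher (13.0%) in PLC/PRF/5. PLC/PRF/5 had 25 falls (11.1% of all features) when fitted alone, 16 with total reads (9.18%) and 15 without the amplicon trend (6.63%). The HepG2 count of rises was 2 without culture 2 or without culture 3, 3 without tumour 3 and 9 without HuH7 tumour 3. The HepG2 count of falls was 12 without HepG2 tumour 1. In PLC/PRF/5 the count of falls was 4 without culture 2 or without tumour 3, 12 without HepG2 tumour 3 and 11 without HuH7 tumour 3. The share of all features was not taken in fits that left out 1 library, so those counts are no result about the members alone. Without the 4 tumour libraries numbered 3, the members lower and higher were 9 and 7 for HepG2 (17.3% and 16.4% of all features), 36 and 13 for Hep3B (30.6% and 28.7%), and 50 and 0 for HuH7 (22.7% and 27.3%), and 18 were lower for PLC/PRF/5 (11.1%).

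The median changes over the 79 members were -0.17, -0.33, -0.61 and -0.31 for the 4 lines in order, whereas that of all features was -0.01, -0.05, 0.01 and 0.07. The change was negative for 45, 51, 61 and 62 of the 79 members in the same order. By their medians, all features lay about evenly around 0 in HepG2, Hep3B and HuH7 and more often above 0 in PLC/PRF/5. The HepG2 count lay nearest to that of all features. In HepG2 20 of 22 members under 50% GC were negative, where 2455 of 3579 features were. From 50 to 58% GC it was 17 of 29 (2191 of 4372 features). At 58% GC or more it was 8 of 28 (2029 of 5149 features). Individual changes ran from -1.52 to 1.21 for HepG2 and from -3.37 to 1.62 for Hep3B. For HuH7 they ran from -2.93 to 0.64 and for PLC/PRF/5 from -1.35 to 4.09. 36 members had a negative change in all 4 lines and 7 a positive one, NDUFA2, NDUFA9, NDUFS8, NDUFV1, COX6A1, ATP5F1D and ATP5ME. The shares of all features with the same sign in all 4 lines were not computed. No member was called lower in all 4 lines by limma or by edgeR (0 each), and at an unadjusted limma p under 0.05 there was 1, UQCRC2. 8 were called lower in at least 3 lines (4.55% of all features), NDUFA1, NDUFB4, NDUFS5, NDUFV2, UQCRC2, COX4I1, COX7A2 and ATP5IF1, and 3 were called higher in at least 2 (20.6%), NDUFA2, NDUFC1 and NDUFV1. In the mean of the 4 lines 44 fell (32.6% of all features) and 10 rose (33.7%), and edgeR gave 44 (25.8%) and 10 (34.1%).

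**Figure D1:**
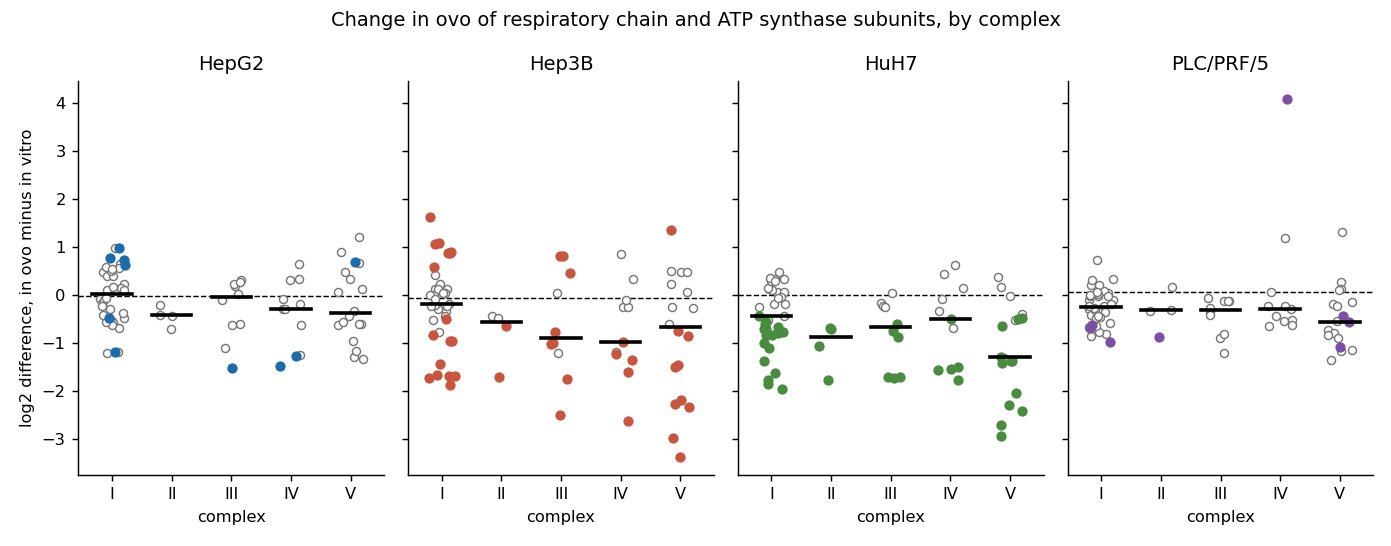
Change of each tested subunit, in ovo minus in vitro on the log2(CPM + 1) scale (vertical axis), by complex (horizontal axis) and line; filled points passed an adjusted p under 0.05 in limma, bars are medians and the dashed line is the median of all features. In HuH7 the filled points all lie below 0, in Hep3B complex V reaches -3.37, and NDUFA4L2 stands at 4.09 in PLC/PRF/5.

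Complex I, which takes electrons from NADH, moved least on balance. Its median changes were 0.02, -0.19, -0.44 and -0.25, with 2, 10, 17 and 3 of 36 subunits called lower and 4, 7, 0 and 0 called higher. Counts of this and the other complexes stand against the shares of all features. These were 13.0%, 27.4%, 19.8% and 5.61% lower and 12.1%, 24.6%, 23.6% and 11.9% higher. In complex I the Hep3B falls and HepG2 rises lay near these shares, and the HepG2 falls and Hep3B rises lay below them. The 7 catalytic core subunits carried on the kit did not move as a block. NDUFV2, the iron-sulphur partner of NDUFV1, stood at 44.0, 44.2 and 38.3 CPM in HepG2 cultures and at 19.7, 20.8, 14.8 and 17.4 CPM in the tumours. In HuH7 it went from 32.9, 38.1 and 31.3 CPM to 8.10, 10.9, 6.07 and 10.6 CPM. In both lines every tumour lay below every culture, and NDUFV2 fell by 1.18 on the log2 scale for HepG2, 1.68 for Hep3B and 1.85 for HuH7 (limma adjusted p 5.94e-04, 4.00e-06 and 1.46e-06). In PLC/PRF/5 its change was -0.44 (limma adjusted p = 0.226, and 0.0388 when that line was fitted alone).

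NDUFS1, the largest iron-sulphur subunit of the core, fell by 1.87 in Hep3B and by 1.96 in HuH7 (limma adjusted p 0.00647 and 0.00615). In HuH7 its cultures held 35.3, 32.2 and 35.5 CPM and its tumours 8.87, 14.5, 1.18 and 19.2 CPM. The groups did not overlap, but tumour 3 lay far below the other tumours, and without it the HuH7 change was -1.28. In HepG2 its change was -1.19 (adjusted p = 0.116), which limma called without HuH7 tumour 3 (adjusted p = 0.0287).

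NDUFV1, the subunit that oxidises NADH, went the other way. It stood at 63.6, 62.7 and 63.1 CPM in HepG2 cultures and at 108, 105, 205 and 105 CPM in tumours, and at 161, 169 and 169 CPM in Hep3B cultures and at 244, 418, 517 and 282 CPM in tumours. All tumours of these lines lay above all cultures, and limma gave rises of 0.98 ± 0.28 (SE, adjusted p = 0.0126) and 1.07 ± 0.28 (adjusted p = 0.00327). Without HepG2 tumour 3 the HepG2 change was 0.74 and its adjusted p 0.0575. With the amplicon trend subtracted the HepG2 rise was 0.62, the Hep3B change was -0.01, and NDUFV1 was called lower in HuH7 (-0.39, adjusted p = 0.0368). With total reads the Hep3B change was 0.09. NDUFS8, an iron-sulphur subunit beside the ubiquinone site, rose by 1.62 in Hep3B, from 1738, 1912 and 1788 CPM to 3427, 5984, 11724 and 4039 CPM. Here tumour 3 again held the most extreme level, and the groups did not overlap. The call was lost without the amplicon trend (0.54) and with total reads (0.64).

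Among the accessory subunits NDUFS5 showed the smallest p value of the family in Hep3B. Its cultures held 106, 106 and 108 CPM and its tumours 32.1, 32.7, 27.2 and 39.3 CPM, a fall of 1.69 ± 0.15 (SE, limma adjusted p = 4.55e-09) with no overlap. NDUFS5 also fell in HuH7, by 0.61, and in PLC/PRF/5, by 0.68, and in HepG2 its change was 0.11 (61.4, 59.5 and 64.4 CPM against 78.8, 69.7, 66.8 and 54.1 CPM). The HuH7 call was lost without the amplicon trend (-0.17). The lines differed in its change (limma interaction adjusted p = 3.99e-06). NDUFC1, a membrane subunit, rose in HepG2 by 0.62 and in Hep3B by 0.90, with a change of -0.45 in PLC/PRF/5 (limma interaction adjusted p = 0.0012). The HepG2 call was lost without culture 2 (adjusted p = 0.0574) or culture 3 (0.0878), and the PLC/PRF/5 change was called without Hep3B tumour 1 (0.0276), as was that of 0.36 in HuH7 (0.0422). Both rises lost their call without the amplicon trend (0.38 and 0.58), where the PLC/PRF/5 change of -0.76 was called (adjusted p = 0.037), and with total reads the changes were 0.39 in HepG2 and -0.05 in Hep3B, neither called. NDUFA2 rose in HepG2 by 0.77 and in Hep3B by 0.87, and the HepG2 call was lost without any 1 culture or without tumour 3 (changes of 0.52 to 0.80). Its Hep3B change was 0.12 without the amplicon trend and -0.10 with total reads, and not called. NDUFB6 rose in Hep3B by 1.09, from 32.7, 36.5 and 38.5 CPM to 49.1, 86.9, 104 and 81.4 CPM, a call lost without culture 1 (adjusted p = 0.0675) or tumour 3 (0.0662), without the amplicon trend (-0.04) and with total reads (0.13). NDUFA12 rose in HepG2 by 0.74, a call lost without culture 2, culture 3 or tumour 3 (changes of 0.62 to 0.67). NDUFA1 was called lower in Hep3B, HuH7 and PLC/PRF/5, at -0.96, -1.0 and -0.98, but on at most 12 reads in any of those tumours. Its PLC/PRF/5 call was lost in 19 of the fits that left out 1 library, its Hep3B call without culture 1 or tumour 3 and its HuH7 call without culture 2, tumour 1 or tumour 3. None of the 3 calls was made without the amplicon trend (-0.36, -0.39 and -0.56).

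Complex II, succinate dehydrogenase, had median changes of -0.42, -0.56, -0.88 and -0.32. All 4 subunits were called lower in HuH7, 2 in Hep3B, 1 in PLC/PRF/5 and 0 in HepG2, where edgeR also called 0 and an unadjusted limma p under 0.05 gave 0. SDHA, the flavoprotein that oxidises succinate, went from 66.3, 73.9 and 69.9 CPM in HuH7 cultures to 31.8, 39.5, 19.4 and 48.9 CPM in tumours, a fall of 1.06 (limma adjusted p = 9.32e-04) with no overlap. Its changes in the other lines lay between -0.44 and -0.31. SDHB, the iron-sulphur subunit, fell by 0.88 in PLC/PRF/5, from 20.1, 27.9 and 26.5 CPM to 12.0, 12.4, 12.5 and 14.9 CPM (limma adjusted p = 0.00587). Its fall of 0.68 in HuH7 was not called without culture 1, culture 3 or tumour 3 (adjusted p 0.0533 to 0.0666), and its change of -0.47 in Hep3B was called without Hep3B tumour 4 (adjusted p = 0.0331) or HuH7 tumour 3 (0.0476).

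Complex III, which hands electrons from ubiquinol to cytochrome c, was split. Its median changes were -0.05, -0.89, -0.67 and -0.30, and in Hep3B 3 of 10 members rose while 5 fell. UQCRC2, a core subunit without redox centre, stood at 16.2, 13.6 and 15.6 CPM in HepG2 cultures and at 12.1, 5.60, 0.789 and 5.38 CPM in tumours. It fell by 1.52 there, by 2.49 for Hep3B and by 1.73 for HuH7 (limma adjusted p 0.00995, 4.43e-05 and 0.00248). The Hep3B tumours had 0 to 4 reads of it. The HepG2 change was not called by edgeR (-1.33, edgeR adjusted p = 0.0798). In PLC/PRF/5 its change of -1.20 missed the threshold (adjusted p = 0.0538) and passed it without HepG2 tumour 1 (0.027), HepG2 tumour 3 (0.00744), HuH7 tumour 3 (0.0399) or PLC/PRF/5 tumour 2 (0.0449). UQCRFS1, the Rieske iron-sulphur protein, fell by 1.71 in HuH7, and by 1.18 without tumour 3, when the call was lost (adjusted p = 0.0578). Its change of -1.21 in Hep3B (adjusted p = 0.0573) was called without HepG2 tumour 3, Hep3B tumour 4, HuH7 tumour 3 or HuH7 tumour 4 (0.0242 to 0.042).

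CYC1, cytochrome c1, and UQCR10, a small membrane subunit, were called higher in Hep3B and in no other line as measured, and for both the lines differed (limma interaction adjusted p 0.0326 and 0.00496). With total reads both Hep3B changes were -0.15. Without the amplicon trend CYC1 was not called in Hep3B (0.20) and was called lower in HuH7 (-0.36), with an interaction adjusted p of 0.0719, while UQCR10 was called higher in Hep3B (0.43) and lower in HuH7 (-0.55) and PLC/PRF/5 (-0.46). CYC1 stood at 146, 147 and 136 CPM in Hep3B cultures and at 153, 270, 344 and 292 CPM in tumours, a rise of 0.83 (limma adjusted p = 0.00277) in which the tumour nearest the cultures was number 1. UQCR10 rose by 0.82 in Hep3B (117, 119 and 123 CPM against 137, 206, 288 and 248 CPM) and had changes of 0.32, -0.23 and -0.34 in HepG2, HuH7 and PLC/PRF/5. The near-identical UQCRH, named after its values were seen, and UQCRHL gave -1.01 and -1.01 in Hep3B and -0.59 and -0.75 in HuH7, all called, and they are not independent measurements. UQCRC1, the other core subunit without redox centre, had a change of -0.87 in HuH7 that was called, a call lost without any 1 culture, tumour 1 or tumour 3 (changes of -0.55 to -0.91).

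Complex IV, cytochrome c oxidase, which reduces oxygen, had median changes of -0.29, -0.99, -0.50 and -0.29, with 2, 5, 5 and 0 of 11 members called lower. The Hep3B median sits in a gap between 2 sets of members and was -0.32 with edgeR's values. COX4I1, the main regulatory subunit, went from 494, 447 and 482 CPM in HepG2 cultures to 295, 269, 81.0 and 227 CPM in tumours. In Hep3B it went from 371, 364 and 368 CPM to 147, 149, 120 and 227 CPM, and in HuH7 from 766, 784 and 789 CPM to 263, 357, 132 and 461 CPM. Every tumour of these lines lay below every culture, and COX4I1 fell by 1.27, 1.23 and 1.5 (limma adjusted p 0.0107, 0.00663 and 0.00195). In PLC/PRF/5 its change was -0.29, with 627, 694 and 620 CPM in cultures and 559, 582, 350 and 694 CPM in tumours, which overlap.

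COX7A2, the isoform of the small subunit VIIa found outside muscle, fell most in Hep3B. It stood there at 49.3, 44.0 and 50.7 CPM in cultures and at 8.95, 5.54, 3.62 and 11.8 CPM in tumours, a fall of 2.64 ± 0.37 (SE, limma adjusted p = 3.14e-06). It also fell in HepG2, by 1.48, and in HuH7, by 1.77, and its change in PLC/PRF/5 was -0.65 (limma interaction adjusted p = 0.0237). COX6A1, the isoform found outside muscle, had changes of 0.33, 0.33, 0.15 and 0.06 and was called in no line. COX5B, a subunit that binds zinc, had changes of -0.08 to -0.32 and was also called in none. Both were called lower without the amplicon trend in Hep3B (-0.75 and -1.40) and HuH7 (-0.53 and -1.17). COX6B1, on the side that meets cytochrome c, had a called change of -0.50 in HuH7, which was lost without any 1 HuH7 culture, tumour 3 or tumour 4 (changes of -0.39 to -0.54). In Hep3B its change of -0.24 became -0.44 and was called without tumour 3 (adjusted p = 0.0417).

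NDUFA4L2, a paralogue of NDUFA4 that is known as a target of hypoxia-inducible factor, was the 1 member called higher in PLC/PRF/5. Its cultures held 9.10, 6.01 and 8.83 CPM and its tumours 192, 69.3, 209 and 182 CPM, with the lowest tumour far above the highest culture. The rise was 4.09 ± 0.38 on the log2 scale (SE, limma adjusted p = 1.99e-08), on 63 to 93 reads in cultures and 825 to 1898 in tumours. In Hep3B it went from 1.85, 1.91 and 2.23 CPM to 5.86, 4.53, 3.88 and 3.70 CPM, without overlap, for a change of 0.86 that missed the threshold (adjusted p = 0.0638). That change was called without HuH7 tumour 3 (adjusted p = 0.0381), HuH7 tumour 4 (0.0339) or PLC/PRF/5 tumour 2 (0.0358). In HuH7 the change was 0.64 (adjusted p = 0.183), and 1.01 and called without HuH7 tumour 4 (0.023), and in HepG2 it was -0.29, on at most 10 reads in any library. The lines differed in this change (limma interaction adjusted p = 2.44e-06). The feature labelled NDUFA4 is no comparison for it, for the reason given with its sequence.

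**Figure D2:**
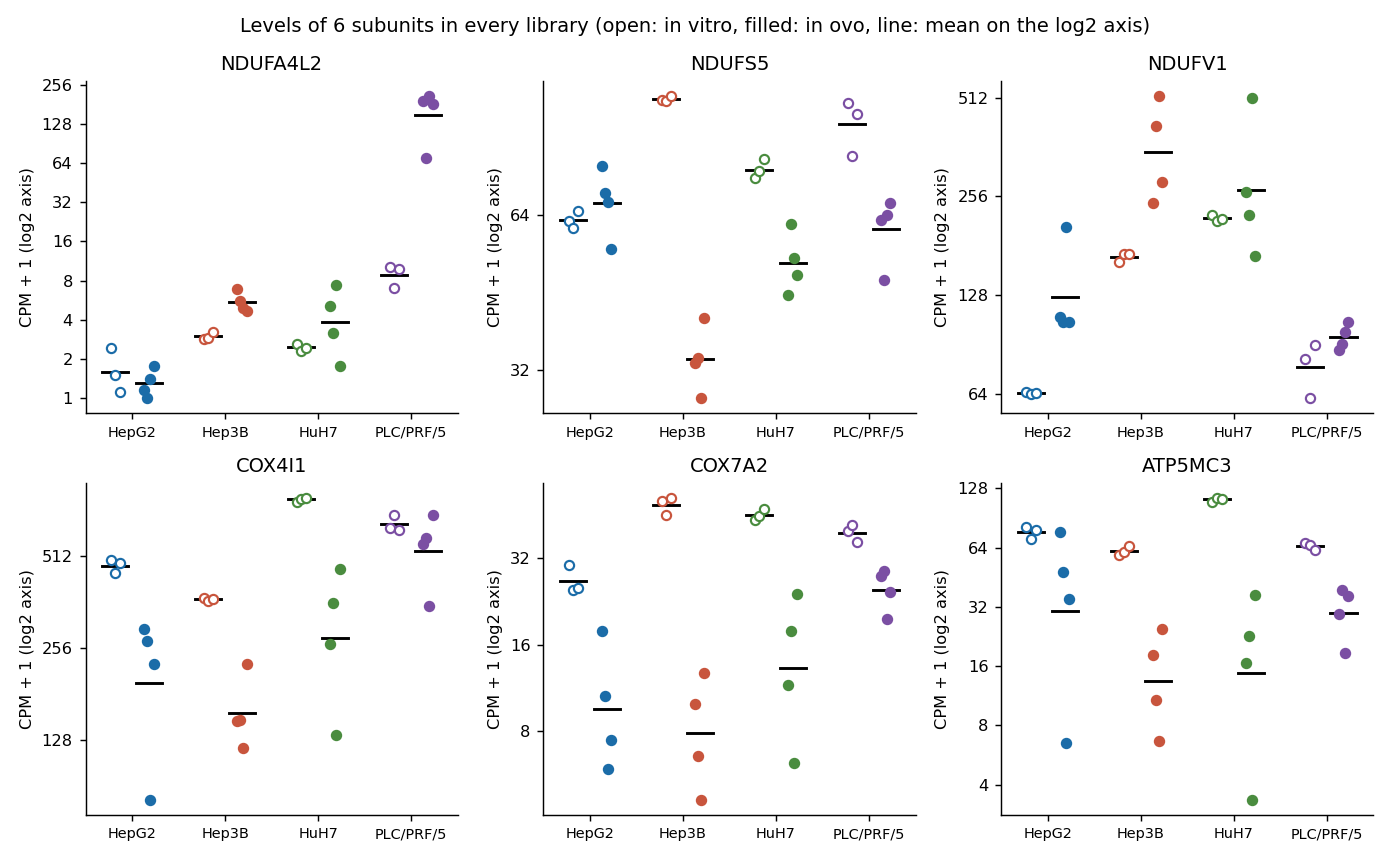
Levels of 6 subunits (CPM + 1, log2 axis) in each library of the 4 lines, cultures open and tumours filled, with the mean on the log2 axis as a line. NDUFA4L2 rises in PLC/PRF/5, NDUFS5 falls most in Hep3B, NDUFV1 lies higher in the tumours of HepG2 and Hep3B as measured, and COX4I1, COX7A2 and ATP5MC3 lie lower in the tumours of Hep3B and HuH7.

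Complex V, the ATP synthase, had the lowest median change in HuH7, -1.30, with 12 of 18 members called lower, and a median of -0.67 in Hep3B with 9 lower and 1 higher. In HepG2 the median was -0.38 with 0 lower by limma (2 at an unadjusted p under 0.05, 0 by edgeR) and 1 higher, and in PLC/PRF/5 it was -0.56 with 3 lower. ATP5F1B, the beta subunit of the catalytic head, had the lowest change of the family in Hep3B. It stood at 23.1, 20.6 and 28.4 CPM in Hep3B cultures and at 5.64, 0, 0 and 3.93 CPM in tumours, a fall of 3.37 (limma adjusted p = 9.88e-04). In HuH7 it fell by 2.71, from 18.5, 19.2 and 15.8 CPM to 0.514, 3.77, 0 and 8.40 CPM, and in no case did the groups overlap. ATP5F1A, the alpha subunit, which is assembled with beta in equal number, fell by 1.38 in HuH7 (limma adjusted p = 7.74e-04), and its changes in HepG2, Hep3B and PLC/PRF/5 were -0.63, -0.61 and -0.72. Each of these 3 changes passed the threshold without 1 library, at -0.82 without HepG2 tumour 1 for HepG2, without HepG2 tumour 3 for Hep3B (0.029) and for PLC/PRF/5 (0.0281), and without Hep3B tumour 4 for Hep3B (0.0451). ATP5F1C, the gamma subunit of the central stalk, fell by 2.98 in Hep3B and by 2.41 in HuH7. Without the tumour numbered 3 of the line these became -2.29 and -1.64, and the HuH7 call was lost (adjusted p = 0.0552).

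The c ring turns in the membrane and is made from 3 genes for the same mature protein. ATP5MC3 stood at 108, 113 and 113 CPM in HuH7 cultures and at 15.6, 21.8, 2.36 and 35.9 CPM in tumours, and at 57.7, 59.9 and 64.0 CPM in Hep3B cultures and at 17.3, 9.82, 5.70 and 23.6 CPM in tumours. No tumour reached a culture, and ATP5MC3 fell by 2.93 in HuH7 and by 2.19 in Hep3B (limma adjusted p 8.64e-04 and 0.00666). Without HuH7 tumour 3 the HuH7 change was -2.22, and in HepG2 the change of -1.34 was called without tumour 1 (-1.79, adjusted p = 0.0423). ATP5MC2, named after its values were seen because its libraries scattered from 71.7 to 257 CPM among Hep3B cultures alone, was called in no line. The median over the 3 c-ring genes was -1.5 in Hep3B and -2.04 in HuH7. Over the 5 ATP5F1 genes, which take in the catalytic head and the central stalk, it was -0.61 and -1.38. Over the 4 genes of the peripheral stalk it was -0.09 and -0.49.

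In that stalk ATP5PB fell by 2.34 in Hep3B and by 2.29 in HuH7, by 1.66 in HuH7 without tumour 3. ATP5PF, another stalk subunit, rose in HepG2 by 0.69, from 8.74, 8.63 and 10.1 CPM to 16.2, 17.6, 13.2 and 14.9 CPM. That call was lost without the amplicon trend (0.53) and with total reads (0.48). ATP5PF had a change of -0.40 in HuH7 (adjusted p = 0.0722), called without Hep3B tumour 1 (0.0407). The lines differed in its change (limma interaction adjusted p = 0.00554). ATP5MF, a membrane subunit, fell in HuH7 by 0.63 and in PLC/PRF/5 by 0.57, with 0.33 in HepG2 (limma interaction adjusted p = 0.00141). Its HepG2 change was called at 0.43 without HepG2 tumour 4 (adjusted p = 0.0356). ATP5ME, a subunit of the dimer interface, rose in Hep3B by 1.36, from 98.2, 103 and 99.8 CPM to 171, 266, 397 and 249 CPM, and its HepG2 change of 0.90 was called without HuH7 tumour 3 (adjusted p = 0.0348). The Hep3B call was lost without the amplicon trend (0.45) and with total reads (0.39). ATP5IF1, the inhibitor of the enzyme, was called lower in Hep3B, HuH7 and PLC/PRF/5, at -0.84, -1.29 and -1.08, on levels under 10 CPM. The Hep3B call was lost without culture 1 (adjusted p = 0.0908) or tumour 3 (0.0501), and the PLC/PRF/5 call without culture 3 (0.0546). Once the trend was subtracted, neither the Hep3B change (0.37) nor the HuH7 change (-0.34) was called.

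In fits to the libraries of 1 line alone, some calls of the members described above were lost and others were gained. The calls lost in HuH7 were NDUFS1, SDHB, UQCRC1, UQCRFS1, COX6B1 and ATP5F1C (limma adjusted p 0.0528 to 0.105). Those lost in HepG2 were NDUFA2, NDUFA12, UQCRC2 and COX4I1 (0.0721 to 0.115). Gained in PLC/PRF/5 were NDUFS1, NDUFV2, COX7A2, UQCRC2, ATP5F1A, ATP5F1B, ATP5F1C, ATP5MC3 and ATP5PB (limma adjusted p 0.00329 to 0.0388). Gained in Hep3B were UQCRFS1, ATP5F1A and NDUFA4L2 (0.0207 to 0.0427). By edgeR on all libraries, UQCRC1, COX6B1 and NDUFA1 were not called in HuH7 (edgeR adjusted p 0.0522 to 0.061). NDUFA1 was also not called by edgeR in PLC/PRF/5 (edgeR adjusted p = 0.0671).

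Changes of the subunits followed the length and base composition of their amplicons. Over the 79 members, the Spearman correlation of the change with amplicon length was -0.44, -0.64, -0.49 and -0.37 for the 4 lines in order, and with GC content 0.57, 0.70, 0.71 and 0.59. Over all 13100 features the same values were -0.29, -0.48, -0.34 and -0.21 for length and 0.27, 0.46, 0.51 and 0.39 for GC. These correlations are across genes of the same libraries, and length and GC are themselves related (-0.49 among members). In Hep3B 9 of 18 members with amplicons up to 110 bases rose and 0 fell, where 43.4% and 8.98% of all features of that length did. Of the 23 with amplicons over 150 bases 17 fell and 0 rose, where 45.3% and 9.92% of all features did. In HuH7 20 of 22 members under 50% GC fell, with a median change of -1.64 (39.3% of all features under 50% GC fell), and 4 of 28 at 58% GC or more fell and 0 rose, with a median of 0.08. Of all features at 58% GC or more 6.54% fell and 37.1% rose, with a median of 0.45. The complexes differ in these properties, complex V having a median amplicon of 148.5 bases and 52.0% GC and complex IV 119 bases and 55%.

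**Figure D3:**
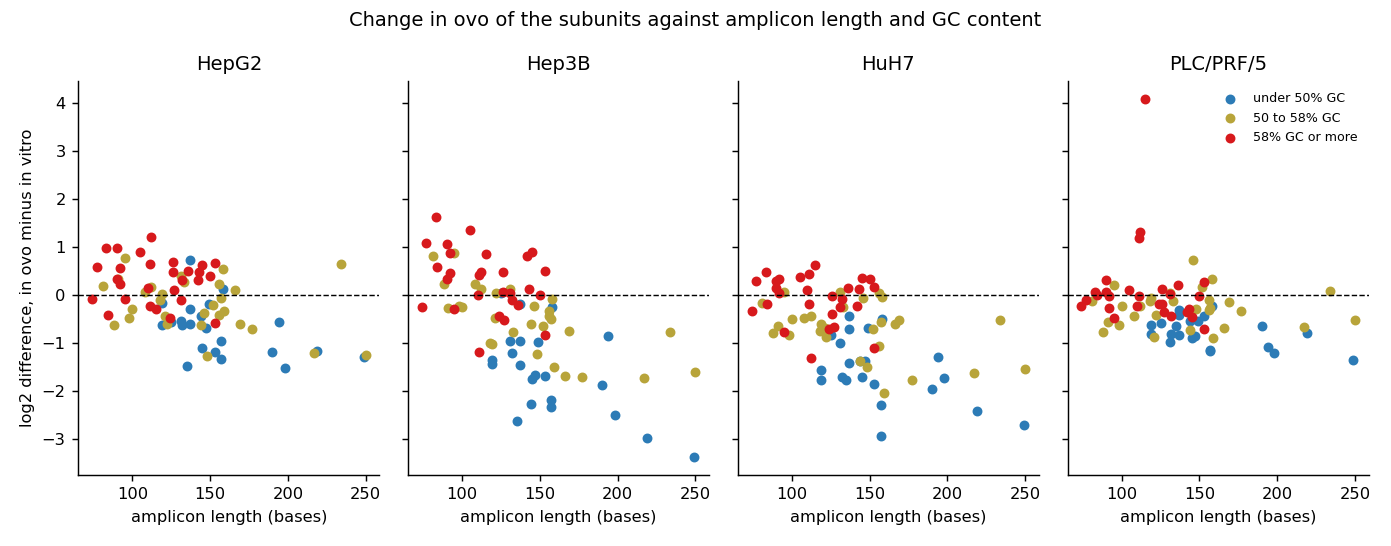
Change of each subunit (log2, in ovo minus in vitro, vertical axis) against amplicon length in bases (horizontal axis) in each line, coloured by GC content. The lowest points are amplicons over 110 bases with under 50% GC, and in Hep3B amplicons of 58% GC or more up to 110 bases make up most of the rises.

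The tumour libraries carried this pattern to different extents. In the tumour libraries of HepG2 the median deviation from the cultures was -0.00, -0.37, -1.40 and -0.52 for members with amplicons over 150 bases, and 0.25, 0.15, 0.37 and 0.05 for those up to 110 bases. In Hep3B the long amplicons stood at -0.71, -1.68, -1.94 and -1.05 and the short ones at 0.05, 0.47, 0.96 and 0.46. HuH7 gave -1.56, -0.92, -1.88 and -0.61 for the long and -0.02, -0.24, 0.46 and -0.61 for the short. In each of these lines the gap was widest in tumour 3. In PLC/PRF/5 tumours the long amplicons lay between -0.65 and -0.39. In HuH7 tumour 4 both classes stood at -0.61.

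**Figure D4:**
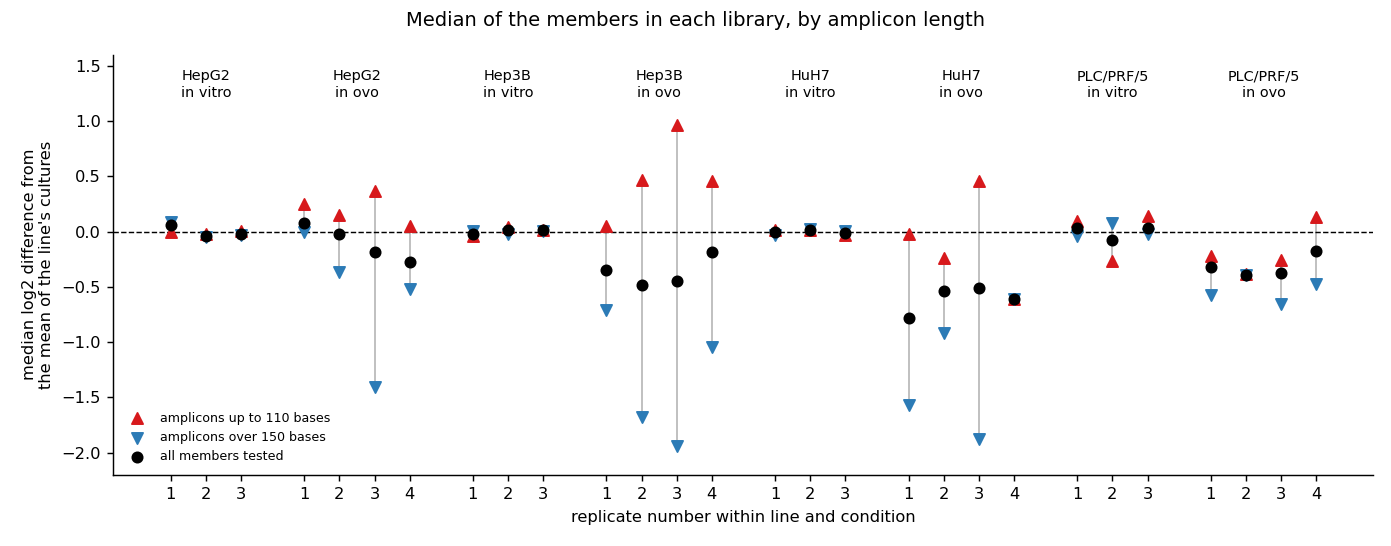
Median deviation of the members from the mean of the line's cultures (log2, vertical axis) in each library (horizontal axis), for all members and for amplicons up to 110 and over 150 bases. Cultures stay near 0, and in tumour 3 of HepG2, Hep3B and HuH7 the long amplicons reach -1.40, -1.94 and -1.88.

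With the trend of all features in length and GC subtracted from each library (splines of 4 degrees of freedom each), the members still lay lower. Their median changes became -0.18, -0.64, -0.67 and -0.36. Among the members the subtraction left a Spearman correlation of the change with GC of 0.32, 0.20, 0.12 and 0.04. With length it left -0.17, -0.14, -0.04 and 0.01. Over all features it left -0.026 to 0.0029 with GC and 0.014 to 0.019 with length in the 4 lines. The changes of the members thus still followed their amplicons in part for HepG2 and Hep3B, and the reason was not tested. The members called lower were 9, 39, 51 and 15 (15.5%, 22.9%, 17.8% and 6.63% of all features), and those called higher 5, 1, 0 and 1 (13.4%, 21.4%, 22.3% and 13.6%). The rises of Hep3B were thus down from 11 to 1, and NDUFV1 stood there at -0.01, NDUFB6 at -0.04 and COX6A1 at -0.75. Of the members called lower before, 5 of 5 were still called for HepG2, 23 of 31 for Hep3B, 35 of 44 for HuH7 and 6 of 7 for PLC/PRF/5. NDUFA1 was the 1 lost in PLC/PRF/5. ATP5IF1 turned to 0.37 in Hep3B.

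After this subtraction NDUFB4, an accessory subunit of complex I, and UQCRC2 were called lower in all 4 lines (2 of 79 members, against 0.702% of all features). UQCRC2 stood at -1.13, -1.43, -0.91 and -0.88. COX4I1 kept -1.23, -1.12 and -1.40 in HepG2, Hep3B and HuH7, COX7A2 -1.35, -2.22 and -1.34, and NDUFV2 -0.92, -0.94 and -1.21. NDUFS5 stood at -1.13 in Hep3B and NDUFA4L2 at 3.82 in PLC/PRF/5. ATP5F1B, with its long amplicon, moved from -3.37 to -1.96 in Hep3B and from -2.71 to -1.65 in HuH7, while ATP5MC3 stayed at -2.50 in HuH7.

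By complex, the medians without the trend were -0.08, -0.40, -0.51 and -0.38 for complex I in HepG2, Hep3B, HuH7 and PLC/PRF/5, and -0.42, -0.78, -0.95 and -0.21 for complex II. Complex III had -0.21, -0.84, -0.73 and -0.42, complex IV -0.55, -0.79, -0.67 and -0.23, and complex V -0.19, -0.49, -0.89 and -0.40. The distance of complex V from complex I in HuH7 was therefore smaller than as measured (-1.30 against -0.44). In Hep3B complexes III and IV lay below complex V both as measured and without the trend, and complex II did so only without it. The measured place of complex IV there is uncertain. Its median sits in a gap between sets of members and lay higher with edgeR's values, as given above. No test of one complex against another was made, since genes are not replicates.

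**Figure D5:**
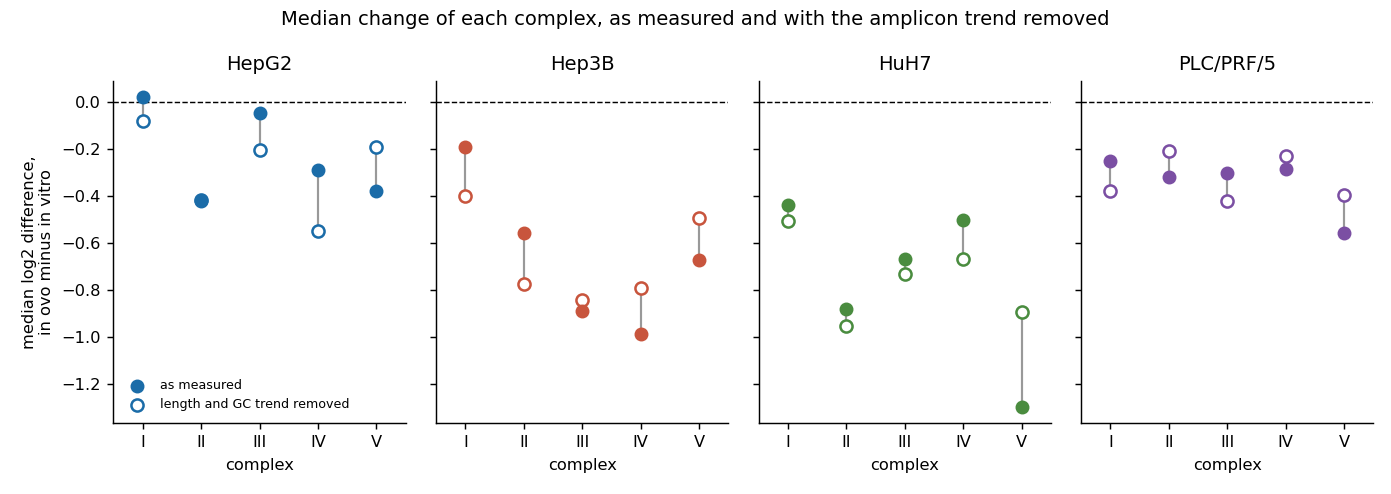
Median log2 change (in ovo minus in vitro, vertical axis) of each complex (horizontal axis) in the 4 lines, as measured (filled) and with the length and GC trend removed (open). Every open point lies below 0, and complex V in HuH7 moves from -1.30 to -0.89.

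Scaling mattered most in Hep3B, whose tumours had TMM factors of 0.447 to 0.711. The reason for these factors was not tested. With libraries scaled by their total reads alone, 64 members were lower and 0 higher in Hep3B (52.1% and 9.20% of all features), and the median of all features was -0.74. In HepG2 that scaling gave 8 lower and 2 higher (15.9% and 9.15%), for HuH7 48 and 0 (23.2% and 19.3%) and for PLC/PRF/5 16 and 1 (9.18% and 9.75%), with medians of all features of -0.18, -0.13 and -0.07. As a share of raw reads, the 88 members took 1.39% ± 0.021 of Hep3B cultures (SD, n = 3) and 0.963% ± 0.163 of tumours (SD, n = 4). The shares were 1.66% ± 0.0052 and 1.35% ± 0.319 for HuH7, 1.93% ± 0.0545 and 1.53% ± 0.0727 for PLC/PRF/5, and 0.897% ± 0.035 and 0.879% ± 0.104 for HepG2. The positive changes of CYC1, COX6A1, NDUFA2, ATP5PF, NDUFC1 and UQCR10 in Hep3B turned negative with total reads, where values lay between -0.86 and -0.05. In the mean of lines 64 were lower and 3 higher with this scaling (49.1% and 20.2% of all features), and with the amplicon trend subtracted 55 and 3 (27.9% and 30.5%).

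Differences among lines were about as frequent among the subunits as among all features. In cultures 51 of 79 members differed among lines (64.6%, limma F test, against 71.5% of all features) and in tumours 68 (86.1% against 85.8%). With cultures fitted alone 77 members differed (94.9% of all features). By complex this held in cultures for 27 of 36 of complex I, 2 of 4 of II, 7 of 10 of III, 5 of 11 of IV and 10 of 18 of V. NDUFC2, a membrane subunit of complex I, had 446 ± 22.2 CPM, 131 ± 2.50, 153 ± 4.74 and 780.0 ± 34.7 (SD, n = 3 each). Its amplicon also lies in the NDUFC2-KCTD14 readthrough gene. UQCR10 held 486, 119.7, 661 and 273 CPM as culture means. NDUFS6, a zinc-binding subunit, held 131, 271, 156 and 679 CPM and NDUFS8 held 619, 1813, 2699 and 666 CPM. NDUFA12 was highest in HuH7 (15.2 CPM, against 3.13 to 4.90 in the others) and NDUFA4L2 in PLC/PRF/5 (7.98 CPM, against 0.672 to 1.99).

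The change itself differed among lines for 16 of 79 members (limma interaction, 41.8% of all features, and 16 by edgeR, 33.5%). They were NDUFA12, NDUFC1, NDUFS4, NDUFS5 and NDUFV2 of complex I, CYC1, UQCR10, UQCRH and UQCRHL of complex III, COX7A2 and NDUFA4L2, and ATP5MC1, ATP5MF, ATP5MPL, ATP5PD and ATP5PF of complex V. As measured with all libraries, 0 of the 79 were called in opposite directions in different lines (8.87% of all features). Without the amplicon trend 2 were, NDUFV1 and UQCR10 (11.9%), and without Hep3B tumour 1 NDUFC1 was called higher in Hep3B and lower in PLC/PRF/5. The count of members with an interaction was 26 without HepG2 tumour 3, 25 without Hep3B tumour 1 and 28 without HuH7 tumour 3. The share of all features was not taken in these fits, so the counts are no result about the members alone. With all 4 tumours numbered 3 left out the count was 43 (60.9% of all features, against 41.8% with all libraries).

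Genes that serve these complexes were taken from lists of general knowledge. Their counts stand against the shares of all features given above, 12.1%, 24.6%, 23.6% and 11.9% higher and 13.0%, 27.4%, 19.8% and 5.61% lower for the 4 lines in order. Without the amplicon trend these shares were 13.4%, 21.4%, 22.3% and 13.6% higher and 15.5%, 22.9%, 17.8% and 6.63% lower. Of 46 assembly factors tested, 8 rose and 2 fell for HepG2, 11 and 10 for Hep3B, 3 and 14 for HuH7, and 2 and 2 for PLC/PRF/5. Both Hep3B shares lay near those of all features as measured. Without the amplicon trend 6 rose and 2 fell for HepG2, 4 and 14 for Hep3B, 3 and 17 for HuH7, and 1 and 5 for PLC/PRF/5. COA3, an early factor for complex IV, rose from 187 ± 1.47 CPM to 484 ± 177 CPM in HepG2 (1.30) and from 199.6 ± 4.68 to 494 ± 73.0 CPM in Hep3B (1.29, SD, n = 3 and 4). BCS1L, which inserts the Rieske protein into complex III, rose by 1.04 in HepG2 and by 1.25 in Hep3B. NDUFAF4, a complex I factor, fell by 0.99, 1.69 and 1.52 in HepG2, Hep3B and HuH7. NDUFAF4 stood at -0.60, -0.61 and -0.68 without the amplicon trend. COX20, a complex IV factor, fell by 1.59 in HepG2 and 1.65 in Hep3B, and its HuH7 change of -0.79 (limma adjusted p = 0.0486) was -0.37 and not called without the trend (0.307).

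Of 14 tricarboxylic acid cycle genes 9 fell and 1 rose in HuH7, 2 fell and 4 rose in Hep3B, and 2 fell and 0 rose in both HepG2 and PLC/PRF/5. After subtraction of the trend 8 fell in HuH7 and 1 rose in Hep3B. FH, fumarase, which acts just after complex II, fell in HuH7 by 2.14, from 60.9 ± 4.78 to 14.7 ± 7.41 CPM. IDH2, the mitochondrial NADP-dependent isocitrate dehydrogenase, rose in Hep3B by 0.73 and in HuH7 by 0.65, both near 0 without the amplicon trend (-0.01 and 0.08). Of 14 listed genes for ubiquinone synthesis and cytochrome c, 13 were tested. Of these 13, 2 fell and 0 rose for HepG2, 6 and 2 for Hep3B, 6 and 1 for HuH7, and 2 and 1 for PLC/PRF/5. Without the amplicon trend the falls were 0, 0, 5 and 0. COQ8A, a kinase-like protein needed for ubiquinone synthesis, rose by 2.14 in Hep3B and by 1.30 in PLC/PRF/5. CYCS, cytochrome c itself, did not pass the filter and is in none of these counts. Among carriers, SLC25A5, which exchanges ADP for ATP, fell by 1.18 in Hep3B and 1.51 in HuH7, and its paralogue SLC25A6 rose in Hep3B by 2.17, and by 1.32 without the amplicon trend.

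Of the regulators of mitochondrial biogenesis there were 0 rises and 4 falls of 21 for HepG2, 3 and 9 for Hep3B, 2 and 5 for HuH7 and 3 and 0 for PLC/PRF/5. The 5 falls in HuH7 and the 3 rises in PLC/PRF/5 lay near the shares of all features as measured. Without the amplicon trend there were 0 rises and 5 falls for HepG2, 1 and 8 for Hep3B, 4 and 8 for HuH7 and 2 and 0 for PLC/PRF/5. PPARGC1A, the coactivator PGC-1alpha, fell in HepG2 from 44.5 ± 2.33 to 18.5 ± 2.14 CPM (-1.23) and rose in PLC/PRF/5 from 7.65 ± 0.826 to 32.2 ± 5.24 CPM (1.93), with 0.70 in HuH7 and -0.03 in Hep3B. TFAM, which packages and transcribes mitochondrial DNA, fell by 0.86 in both Hep3B and HuH7 and had changes of -0.06 in HepG2 and 0.23 in PLC/PRF/5. TFB2M, a mitochondrial transcription factor, fell in HepG2, Hep3B and HuH7 by 0.53, 0.33 and 0.58. NRF1, a transcription factor of many respiratory genes, was called in no line (changes of -0.08 to 0.29), and ESRRA fell in Hep3B by 1.63. PPRC1, a relative of PGC-1alpha, rose in Hep3B, HuH7 and PLC/PRF/5 by 0.64, 0.81 and 1.10.

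Promoters are shown because motifs of factors that act on respiratory genes are held by some members. RefSeq promoters of assembly GRCh38.p14, 250 bases before to 50 after the start, were matched for 70 members among 27305 genes and searched on both strands. Shares are of genes with the motif in any of their promoters, and some genes have several. The palindromic NRF1 consensus was held by 4 members (5.71%, against 1.52% of all genes), and the YY1 consensus also by 4 (5.71% against 1.04%). The core ETS motif CCGGAAG was held by 21 (30.0% against 12.2%) and the estrogen-related receptor motif TCAAGGTCA by 1 (1.43% against 0.432%). A match is a description of the letters and shows no binding. The 250 bases before the start are given for SDHD (chr11:112086623-112086872, plus strand), which holds the NRF1, ETS and receptor motifs, and for NDUFS3 (chr11:47578824-47579073, plus strand), with 2 ETS matches, and capitals mark the matches in these bases to NRF1 and ETS in either direction.
SDHD: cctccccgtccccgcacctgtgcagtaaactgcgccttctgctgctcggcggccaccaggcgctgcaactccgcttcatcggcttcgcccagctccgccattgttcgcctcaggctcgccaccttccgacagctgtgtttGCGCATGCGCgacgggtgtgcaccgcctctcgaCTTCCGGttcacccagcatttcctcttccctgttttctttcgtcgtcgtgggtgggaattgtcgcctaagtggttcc
NDUFS3: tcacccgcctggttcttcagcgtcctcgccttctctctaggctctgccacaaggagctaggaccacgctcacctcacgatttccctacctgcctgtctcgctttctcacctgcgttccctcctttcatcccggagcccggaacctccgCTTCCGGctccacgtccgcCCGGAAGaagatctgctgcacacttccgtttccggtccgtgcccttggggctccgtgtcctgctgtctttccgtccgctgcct

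Outside the family, the genes whose profile over the 28 libraries was most like the mean of the tested members were STRAP (Pearson r = 0.906), RASL11A (0.904) and TIMM17A (0.902), the last a subunit of the mitochondrial import channel. These r values are a description over libraries that fall into 8 groups.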

How the data were processed

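Each deposited table cell holds the authors' signal for 1 amplicon, scaled so that a library adds up to 500000; hg38 is the build per the submitters' processing notes, and no source used here gives the aligner or counting. Equal steps among low values gave the reads behind each value, and at least 99.9578% of values per library lay within 0.01 of a whole read. 3 reads corresponded to 0.199 to 0.493 CPM before TMM scaling. Because the values are scaled, the test was limma 3.58.1 with a trended variance on log2(CPM + 1) for the 13100 features past the filter, in R 4.3.3, with 8 groups, 20 residual degrees of freedom and Benjamini-Hochberg adjustment within each contrast. edgeR 4.0.16 on recovered reads was an alternative. On simulated data limma's within-line calls held more unchanged genes than the threshold states and edgeR's held fewer than limma's, so both counts are given. The simulated reads were drawn from the model that edgeR fits, with no amplicon trend. They therefore cannot decide which test suits these libraries better. The members and lists were chosen with earlier results of these data known. Named members are fixed key subunits and isoforms, the 4 highest and 4 lowest called changes per line, the 8 smallest interaction p values, the 6 widest ranges among cultures, those that did not pass the filter, and called members of the other lists. Alternatives changed 1 choice at a time: scaling, filter, pseudocount, tool, amplicon trend, replicate block, libraries left out. The values of 1 subunit and 1 marker are not reported here. Copies were found with BLAST 2.17.0. The self-test and all figures used fixed seeds.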

Additional observations from a re-analysis of the deposited data

Results flagged for a closer look

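Among 144 groups of 4 tumour libraries of the named members, 8 held a library apart from the others by Dixon's 95% criterion for 4 values, which chance alone meets in about 1 group of 20. 6 of the 8 concern HepG2 tumour 3. There NDUFV1 stood at 205 CPM (others 105 to 108), NDUFS8 at 2752 (762 to 1090.1), COX6A1 at 2838 (1426 to 1468), ATP5ME at 409 (117 to 140.1), NDUFB6 at 68.4 (24.6 to 25.6) and NDUFC2 at 460.1 (273 to 294). SDHA stood at 164 CPM in PLC/PRF/5 tumour 3 (others 221 to 231), and ATP5PF at 38.2 CPM in Hep3B tumour 1 (23.1 to 25.6).

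The change from culture to tumour differed among lines, by limma's interaction test, for 11 of the 36 named members tested, of which 8 were named for their small interaction p, so this count is no result (16 of all 79 members, against 41.8% of all features). The adjusted p was 2.44e-06 for NDUFA4L2, 3.99e-06 for NDUFS5, 0.0012 for NDUFC1, 0.00141 for ATP5MF, 0.00458 for UQCRHL, 0.00496 for UQCR10, 0.00554 for ATP5PF, 0.00583 for NDUFV2, 0.0237 for COX7A2, 0.0284 for NDUFA12 and 0.0326 for CYC1. NDUFA4L2 differed by its rise in PLC/PRF/5 and NDUFS5 by its fall in Hep3B.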

How the results depend on the processing

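Counts of members called are given as higher and lower. With total reads as the scale they were 2 and 8 in HepG2, 0 and 64 in Hep3B, with 16 lower in PLC/PRF/5, 3 higher in the mean of lines and 32 with an interaction; DESeq2's size factors gave 13 lower in PLC/PRF/5. A pseudocount of 5 CPM gave 12 lower in PLC/PRF/5, and edgeR 3 lower in HepG2. With the amplicon trend removed there were 9 lower in HepG2, 1 higher in Hep3B, 15 lower in PLC/PRF/5, 3 higher in the mean and 27 with an interaction. Each line or condition fitted alone gave 2 lower in HepG2, 27 lower in HuH7, 3 and 25 in PLC/PRF/5 and 77 differing among cultures. Without the tumours numbered 3 there were 9 lower in HepG2, 3 and 18 in PLC/PRF/5 and 43 with an interaction. Same-numbered cultures and tumours share only a number (r of their deviations -0.0955 to 0.457, over 0.1 in 5 of 12 pairs, best with the own number in 4), and with the replicate number as a block counts were 10 and 15 in HepG2 and 2 and 16 in PLC/PRF/5. Leaving out 1 library gave 2 to 9 higher and 4 to 12 lower in HepG2, 8 to 13 and 24 to 33 in Hep3B, 0 to 1 and 31 to 45 in HuH7, 1 and 4 to 12 in PLC/PRF/5, and 11 to 28 with an interaction. The cause of these moves was not tested. A count here for which no share of all features is given above is no result about the members alone. No filter, a stricter filter (10 CPM in 3 libraries) and a pseudocount of 0.25 CPM left every count within 1.5 times.

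Signs turned in Hep3B with total reads for CYC1 (-0.15), COX6A1 (-0.65), NDUFA2 (-0.10), ATP5PF (-0.86), NDUFC1 (-0.047) and UQCR10 (-0.15). They turned with the amplicon trend removed for NDUFV1 (-0.014 in Hep3B, -0.39 in HuH7), COX6A1 (-0.75, -0.53), NDUFB6 (-0.042, -0.57) and ATP5IF1 (0.37 in Hep3B). Subunits near 3 reads in tumours, such as NDUFA1 and UQCRC2, are limited by depth.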
